A study of Mus musculus with 6 samples.

Results

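The DNA replication genes examined here were 39 named genes that act in the G1/S transition and in DNA synthesis. They were found by mapping the gene identifiers of the normalized count table to mouse symbols, and all 39 were among its 43274 rows. Bulge SCs, the stem cells in the permanent part of the hair follicle, had been isolated from mouse skin at postnatal day 21 by a sort for CD34 and high α6 integrin, and RNA-seq gave 3 libraries for each genotype, control and ILK-K5. In the controls (ILK +/-) Ilk was floxed on 1 chromosome and in ILK-K5 mice (ILK -/-) on both, and both groups carried K5-Cre, so the control cells had also lost 1 allele. K5-Cre is driven by the keratin 5 promoter and deletes in the basal epidermis and hair follicle, not in bulge SCs alone. The comparison asks whether transcripts of the replication machinery differed between bulge SCs without ILK, an adaptor of integrin adhesions, and their controls. In sorted bulk samples, fewer cells of a type and less RNA per cell cannot be told apart.

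DNA replication begins with the licensing of origins, when the origin recognition complex, Cdc6 and Cdt1 load the Mcm2-7 helicase in G1. Cdc45, the GINS complex and Mcm10 then turn the helicase into an active fork, at which primase and the polymerases copy DNA behind the sliding clamp PCNA. E2F transcription factors, released from the retinoblastoma family by cyclin-dependent kinases, drive many of these genes as cells enter S phase. Bulge SCs are largely quiescent between phases of hair growth and divide when a new growth phase begins.

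No DNA replication gene passed the test between the genotypes. Of the 39 genes, 38 had a mean of at least 10 normalized counts and were tested, and 0 were called higher and 0 lower at an adjusted p of at most 0.05 (limma on log2 normalized counts). Over all 16368 genes tested, 2.93% were called higher and 0.599% lower. At an unadjusted p under 0.05, 0 members were higher and 1 was lower, beside 8.18% and 4.11% of all genes tested. The lower one was Tyms, thymidylate synthase. The median log2 fold change of ILK-K5 over control was -0.07 over the members and 0.01 over all genes tested, and 14 members lay above 0 and 24 below. The fold changes ran from -0.93 for Cdc45 to 0.71 for Pold1.

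The width of the intervals sets what these libraries can show. The 95% interval of the log2 fold change lay wholly between -1 and 1, that is within a 2-fold change either way, for 10 of the 38 members, and over all genes tested for 3359. For 23 members the interval left out a 2-fold rise, and for 20 it left out a 2-fold fall. For the other members a 2-fold change in that direction lay inside the interval. With 3 libraries against 3, the smallest p that an exact permutation test of a single gene can give is 0.1. The labels do not say whether the libraries of a genotype came from separate animals, so the p-values measure the spread between these libraries.

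The promoters of the members were searched for short elements of cell cycle genes. The E2F recognition element was searched as TTTGGCGC, TTTGCCGC, TTTCGCGC or TTTCCCGC on both strands, in windows from 250 bases before to 50 bases after the gene start (RefSeq, GRCm38.p6). It was found for 13 of the 32 members with a window in the table (40.6%). Over the 27025 genes in the table the share was 2.6%, and over the genes tested for expression 4.5%. Of the comparison lists described below, further replication and S phase genes had 41.0% and mitosis genes 4.17%. Quiescence and G1 regulators had 20.0% and replication stress response genes 11.8%. Mcm6 and Mcm5 are shown because they held overlapping matches on both strands, Mcm7 because it lay higher in all ILK-K5 libraries, and Tyms, which had the lowest p among the members, as a window without a match. Each is printed 5′ to 3′ on the strand of its gene, with the letters of the matches in capitals.
Mcm6 (chr1:128359656-128359955, minus strand): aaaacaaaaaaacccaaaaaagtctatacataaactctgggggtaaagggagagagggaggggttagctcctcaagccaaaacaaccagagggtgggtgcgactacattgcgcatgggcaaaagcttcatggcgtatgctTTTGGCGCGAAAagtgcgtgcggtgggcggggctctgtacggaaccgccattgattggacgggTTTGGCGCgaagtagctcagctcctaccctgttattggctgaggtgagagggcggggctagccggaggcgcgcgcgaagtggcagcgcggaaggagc
Mcm5 (chr8:75109259-75109558, plus strand): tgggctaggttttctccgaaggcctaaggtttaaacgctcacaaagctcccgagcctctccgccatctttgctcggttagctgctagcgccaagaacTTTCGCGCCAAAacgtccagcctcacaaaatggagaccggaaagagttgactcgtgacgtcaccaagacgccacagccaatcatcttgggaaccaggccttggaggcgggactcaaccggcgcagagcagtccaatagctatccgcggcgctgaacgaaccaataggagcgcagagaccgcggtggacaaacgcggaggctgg
Mcm7 (chr5:138171834-138172133, minus strand): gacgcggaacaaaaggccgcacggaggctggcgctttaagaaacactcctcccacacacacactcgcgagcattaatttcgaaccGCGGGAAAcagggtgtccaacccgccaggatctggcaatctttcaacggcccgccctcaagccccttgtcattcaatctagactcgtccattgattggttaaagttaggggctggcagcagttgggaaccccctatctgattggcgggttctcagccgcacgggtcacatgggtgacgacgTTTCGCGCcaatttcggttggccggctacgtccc
Tyms (chr5:30073576-30073875, minus strand): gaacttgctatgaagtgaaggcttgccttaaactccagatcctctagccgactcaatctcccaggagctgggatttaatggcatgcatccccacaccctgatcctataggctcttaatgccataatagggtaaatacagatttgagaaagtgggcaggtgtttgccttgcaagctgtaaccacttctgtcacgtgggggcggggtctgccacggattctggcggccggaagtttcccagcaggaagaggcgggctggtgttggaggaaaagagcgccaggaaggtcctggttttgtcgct

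In Mcm6 the matches began 110, 106 and 47 bases before the start, and in Mcm5 153 and 149 bases before it. Mcm7 has a pair of windows in the table, of which the one printed held a match 165 bases before the start and one 17 bases after it. The remaining members with a match were Mcm3, Cdc6, Cdt1, Orc1, Pola1, Pold1, Rfc3, Lig1, Uhrf1 and E2f2. The CCAAT box, searched as CCAAT on both strands, was found for 59.4% of the members and 41.1% of all genes in the table. Its share was 59.0% for the further replication and S phase genes and 75.0% for the mitosis genes. For quiescence and G1 regulators it was 73.3%, and for replication stress response genes 41.2%. The cell cycle homology element of late cell cycle genes was searched as TTTGAA or TTCGAA on both strands. It was found for 18.8% of the members and 21.7% of all genes, but for 70.8% of the mitosis genes. Counted per window rather than per gene, the E2F element was in 34.2% of member windows and 2.26% of all windows. The 13 tested members with an E2F match had a median log2 fold change of -0.20 between the genotypes, and the 18 without one had -0.04. The windows of E2f1, Cdc6 and Mcm7 lay wholly inside the annotated genes, so the sequence before those genes was not searched. E2f1 therefore counts as without a match only for the window used. A match is a string of letters in the window and not a measured binding site.

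The 3 origin licensing genes among the members were low and uneven between libraries. Levels between genes are given per length, as FPKM (fragments scaled to transcript length and library size). Outside the members, Orc2, Orc3, Orc4, Orc5 and Orc6 averaged 3.37, 13.2, 4.43, 3.19 and 20.2 FPKM. Cdt1, which brings Mcm2-7 to origins, was the most abundant of the 3 licensing genes at 1.96 FPKM on average. It had 45.3, 15.2 and 37.7 normalized counts in control libraries 1, 2 and 3, and 72.9, 51.7 and 28.2 in the ILK-K5 libraries. The genotypes overlapped, and the log2 fold change was 0.66 (SE 0.58, adjusted p = 0.795). It was 0.19 when control library 2 was left out and 1.02 when ILK-K5 library 3 was. Cdc6, an ATPase of origin licensing, had 288 normalized counts in control library 1 and between 40.9 and 80.8 in every other library. Control library 1 alone stood apart, and the log2 fold change was -0.58 (95% interval -2.11 to 0.95).

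Of the Mcm2-7 helicase subunits, Mcm7 was the 1 that did not overlap between the genotypes. Mcm7 (chr5:138164583-138172422) had 144, 144 and 157 normalized counts in the control libraries and 188, 211 and 212 in the ILK-K5 libraries. Every ILK-K5 library lay above every control. The log2 fold change was 0.45 (SE 0.28, 95% interval -0.18 to 1.09, adjusted p = 0.650 in limma). The gene shares 12.6% of its exon bases with Ap4m1, Cops6 and the microRNA genes Mir93 and Mir25. Mcm6, the most abundant subunit at 17.5 FPKM, had 966, 905 and 648 normalized counts in controls and 839, 935 and 479 in ILK-K5 libraries. The ranges overlapped, with ILK-K5 library 3 below every control and a log2 fold change of -0.20 (SE 0.32). Mcm2, Mcm3 and Mcm4 had log2 fold changes between -0.09 and 0.07. Although the 6 subunits form 1 ring, their differences ran from -0.45 for Mcm5 to 0.45 for Mcm7, and 0 of the 6 passed the test.

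Of the genes that activate the helicase, Cdc45 was lower in every ILK-K5 library. Cdc45 (chr16:18780447-18811987), a subunit of the active helicase, had 88.8, 79.1 and 38.5 normalized counts in the control libraries. The ILK-K5 libraries held 36.4, 33.2 and 31.2. The lowest control was close to the highest ILK-K5 library, and the log2 fold change of -0.93 (SE 0.47, 95% interval -1.98 to 0.12) did not pass the test (adjusted p = 0.503). Gins1, a subunit of GINS, had 31.8, 69.9 and 30.5 normalized counts in controls and 50.1, 33.2 and 26.3 in ILK-K5 libraries, which overlapped. Mcm10, which acts as forks start, had the lowest level of the tested members at 0.341 FPKM. Gins2 shares 67.3% of its exon bases with Gse1, so its counts may hold reads of that gene or lack reads of its own.

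Of the primase and polymerase genes, Pold1 lay higher in each ILK-K5 library. Pold1 (chr7:44532746-44548849), the catalytic subunit of the lagging strand polymerase, had 11.6, 12.2 and 19.6 normalized counts in controls and 22.8, 23.9 and 24.4 in ILK-K5 libraries. The genotypes did not overlap, but the counts were low and the log2 fold change of 0.71 had an SE of 0.55 (adjusted p = 0.754). Prim1, the catalytic primase subunit and the most abundant of these genes at 10.8 FPKM, had 659.9, 529 and 271 normalized counts in controls and 452, 262 and 272 in ILK-K5 libraries. Its libraries overlapped, and its log2 fold change was the lowest of the 6 genes of this role at -0.52 (SE 0.39). It was -0.25 when control library 1 was left out and -0.89 when control library 3 was. Pola1, Pola2, Prim2 and Pole lay between -0.35 and 0.02.

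In all, 2 members did not overlap upwards (Mcm7 and Pold1) and 2 downwards (Cdc45 and Tyms), beside 10.9% and 6.95% of all genes tested. Among the 38 members tested these are no larger shares than among all genes. The 4 genes belong to different roles.

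The sliding clamp Pcna was the most abundant member, at 81.8 FPKM, above 96.7% of the genes tested. It had 1878, 2810.0 and 1456 normalized counts in controls and 1622, 2170.3 and 1549.8 in ILK-K5 libraries. The ranges overlapped, with a log2 fold change of -0.16 (SE 0.31, 95% interval -0.86 to 0.53). Its near-identical copy Pcna-ps2 held a mean of 573 normalized counts, against 1915 for Pcna, so the split of reads between them is uncertain. The clamp loader genes Rfc2, Rfc3 and Rfc4 had log2 fold changes of -0.30, -0.39 and -0.31, and Rfc5 had 0.31. None of the 4 passed the test. Rfc2 shares 15.1% of its exon bases with Lat2, Rfc4 12.7% with Eif4a2 and Rfc5 10.7% with Wsb2.

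Lig1, the ligase that joins Okazaki fragments, had 652, 374 and 328 normalized counts in controls and 376, 377 and 332 in ILK-K5 libraries. Only control library 1 stood away from the rest, and the log2 fold change was -0.25 (SE 0.32). Fen1, the flap nuclease of the same step, was the 1 member below the count minimum, with 8.68, 3.04 and 2.90 normalized counts in controls and 7.97, 3.09 and 4.87 in ILK-K5 libraries. It shares 84.2% of its exon bases with Tmem258 and Gm10143, so its low counts do not show a low level of the transcript. Rpa1, the large subunit that coats single-stranded DNA, was the steadiest member, at 303, 265 and 237 normalized counts in controls and 274, 271 and 233 in ILK-K5 libraries. Its highest library was 1.30 times its lowest. The log2 fold change was -0.05 (95% interval -0.65 to 0.56), which leaves out a 2-fold change either way.

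The genes of deoxynucleotide supply had fold changes on both sides of 0. Tyms (chr5:30058202-30073617), which makes thymidylate, had 1098, 642 and 537 normalized counts in the control libraries and 454, 357 and 356 in the ILK-K5 libraries. All ILK-K5 libraries lay below all controls. The log2 fold change was -0.90 (SE 0.32, 95% interval -1.62 to -0.18), with an unadjusted p of 0.0196 and an adjusted p of 0.240 in limma. With a term for the sample number described below, it was called lower (adjusted p = 0.0414). Rrm2, the S phase subunit of ribonucleotide reductase, had 477, 229.6 and 178 normalized counts in controls and 655, 351 and 357 in ILK-K5 libraries, so each ILK-K5 library lay above the control of the same replicate number while the genotypes overlapped. Its log2 fold change was 0.69 (SE 0.42, adjusted p = 0.639). Its partner Rrm1 had 704, 609.7 and 528 normalized counts in controls and 611, 558 and 476 in ILK-K5 libraries, a log2 fold change of -0.16 (SE 0.25). Tk1, the salvage thymidine kinase, had a log2 fold change of 0.33 (SE 0.38).

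Among genes that restore chromatin behind the fork, Uhrf1, which guides maintenance of DNA methylation, had 231, 114 and 128 normalized counts in controls and 145, 165 and 142 in ILK-K5 libraries. The ILK-K5 values fell inside the control range, and the log2 fold change was 0.00 (95% interval -0.80 to 0.81). The chromatin assembly subunits Chaf1a and Chaf1b had -0.04 and 0.64, of which Chaf1b was uneven, its highest library being 7.42 times its lowest. Chaf1a shares 52.5% of its exon bases with Ubxn6, so its counts are uncertain. E2f1, the transcription factor, was the most abundant G1/S regulator at 20.3 FPKM. It had 1055, 582 and 287 normalized counts in controls and 946, 429 and 443 in ILK-K5 libraries. The spread within each genotype was wide and the means were close, with a log2 fold change of 0.01 (SE 0.49). E2f2 had 0.61, Ccne1 -0.35 and Ccne2 -0.71, none of which passed the test. Ccne2 shares 17.4% of its exon bases with Ints8. Ccne1, cyclin E1, varied most of all members, from 3.04 to 85.9 normalized counts, a 28.2-fold range.

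**Figure D1:**
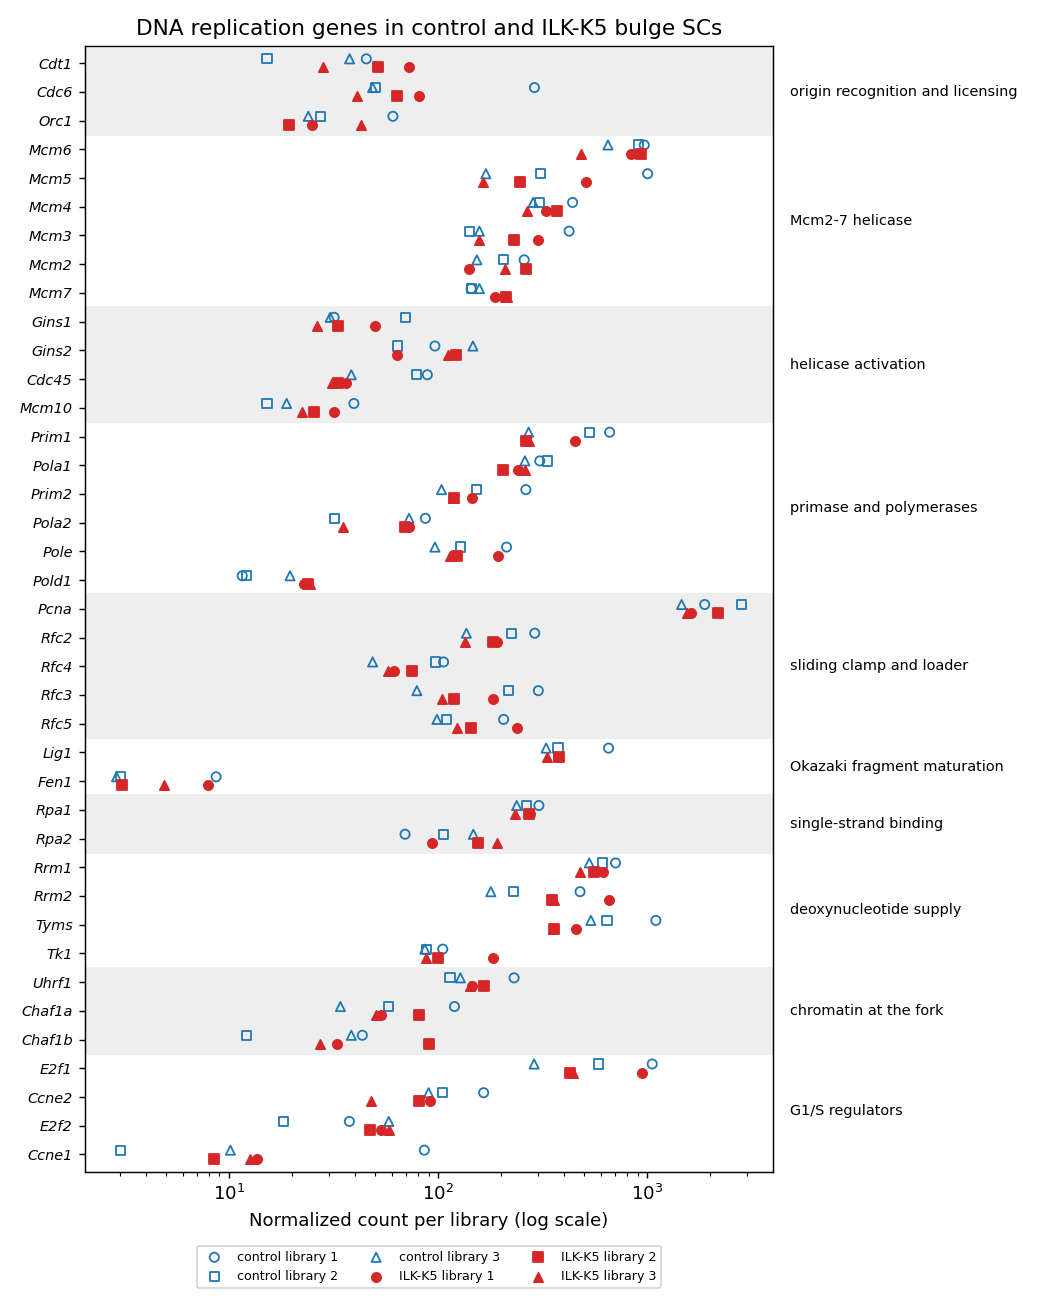
Normalized counts of the 39 DNA replication genes in the 6 libraries, on a log axis, with genes grouped by role and ordered by level per length within a role. Open symbols are control and filled symbols ILK-K5 libraries, and the symbol shape gives the library number. Symbols of the genotypes interleave for most genes, and library 1 (circles) often lies furthest right.

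**Figure D2:**
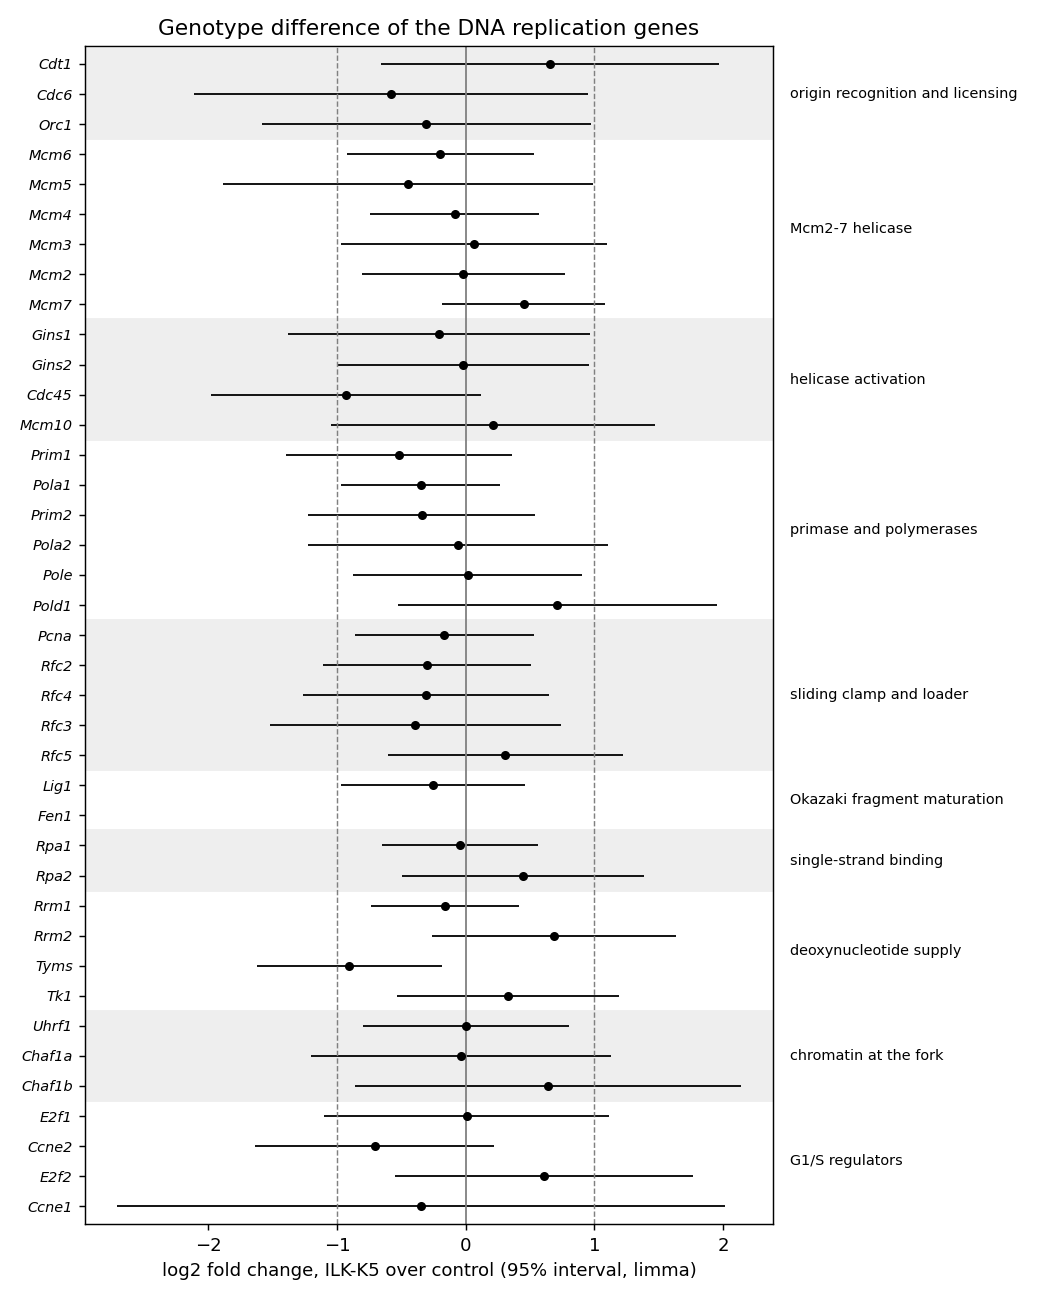
Log2 fold change of ILK-K5 over control for the 38 tested members (points) with 95% intervals from limma (bars), grouped by role. Dashed lines mark a 2-fold change. Only the interval of Tyms leaves out 0, and 10 intervals lie wholly between the dashed lines.

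Differences between libraries also ran within the genotypes. In both genotypes, library 1 held the highest value of the 3 for 21 of the 38 members, against 24.9% of all genes tested. Library 1 of each genotype carries the same sample number in its description, and the numbers of libraries 2 and 3 end in digits of their own that both share. What the numbers stand for is not given in the sources used here. This contrast was chosen after the values had been seen. In a fit with the genotype as a term, the median log2 difference of library 1 from libraries 2 and 3 was 0.51 over the members and -0.01 over all genes tested, and 32 members lay above 0 and 6 below. Cell type markers also differed in this contrast. Markers of differentiated keratinocytes had a median of -1.17, with 6 of the 6 tested below 0 and 1 called lower. Macrophage and leukocyte markers each had a median of -0.67, with 10 of 15 and 4 of 6 below 0. Of the macrophage markers, 1 was called lower. Langerhans and dendritic cell markers had -0.47, with 5 of 6 below 0 and 1 called lower. T cell markers had -0.48 and fibroblast markers -0.02. Melanocyte markers had 0.58, with 4 of 5 above 0, and endothelial markers 0.54, with 2 of 2 above 0. Bulge markers had a median of -0.19, with 1 called higher and 1 lower. The part of these cells in the difference was not tested.

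In that fit, 3 members were called higher in library 1 and 0 lower, beside 2.88% and 5.95% of all genes tested. Mcm5 (chr8:75109569-75128439) had 1002, 309 and 169 normalized counts in controls and 508, 246 and 165 in ILK-K5 libraries. Library 1 stood above the other two in both genotypes, with a log2 difference of 1.73 (SE 0.33, adjusted p = 0.0190 in limma). Rrm2 had 1.06 (SE 0.25, adjusted p = 0.0318) and E2f1 1.24 (SE 0.30, adjusted p = 0.0345), from the values given above. Rpa2, the middle subunit of the single-strand binding complex, had the lowest difference at -0.86 (adjusted p = 0.0975), with 69.5, 106 and 147 normalized counts in controls and 93.4, 156 and 191 in ILK-K5 libraries. Each of these rests on 1 library of each genotype against 2. The 13 tested members with an E2F match had a median difference of 0.49, and the 18 without one had 0.59.

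Summed over the 39 members, the normalized counts were 13356, 10186 and 7247 in the control libraries and 10073, 9172 and 7403 in the ILK-K5 libraries. Control library 1 was the highest and control library 3 the lowest, with the ILK-K5 libraries between them. As a share of all reads on genes, the members held 0.132%, 0.0814% and 0.0834% in controls and 0.104%, 0.106% and 0.0841% in ILK-K5 libraries. Taken by replicate number, the median log2 difference of ILK-K5 from control was -0.40 for number 1, with 9 members above 0 and 29 below. It was 0.12 for number 2 and 0.01 for number 3, with 22 above and 16 below in each. The sign of the median over the members changed when a single library was left out. It rose to 0.16 when control library 1 was dropped and to 0.01 when ILK-K5 library 3 was dropped. Each of these values compares single libraries or fewer than 3 and has no test of its own.

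**Figure D3:**
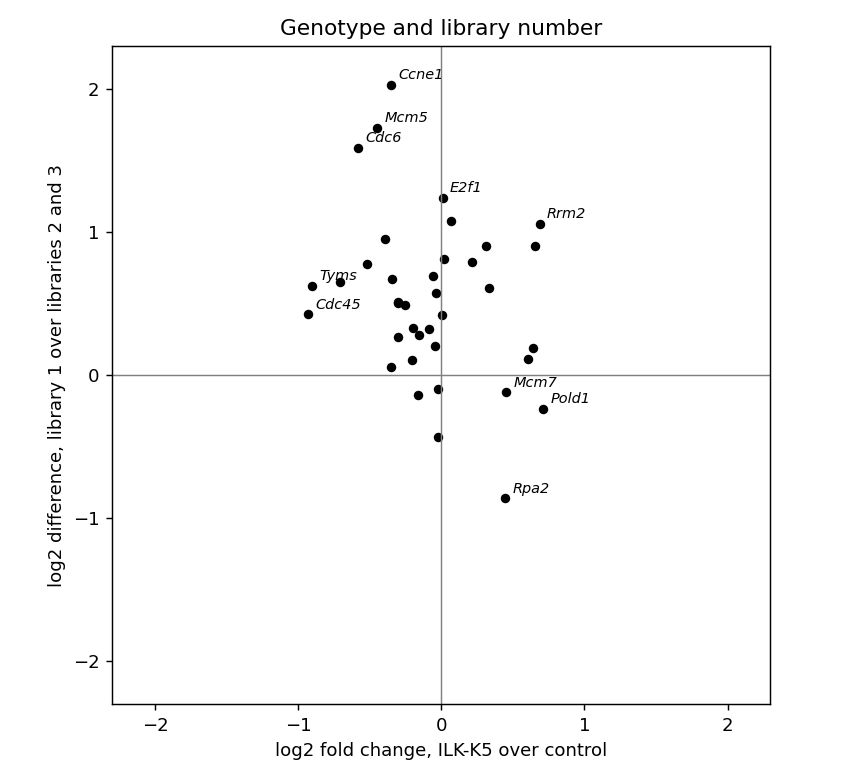
For each of the 38 tested members, the log2 fold change of ILK-K5 over control (horizontal axis) and the log2 difference of library 1 from libraries 2 and 3 (vertical axis). Points spread to both sides of 0 along the horizontal axis, while 32 of the 38 lie above 0 on the vertical axis.

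Other genes of the cell cycle were examined beside the members. Of 47 further replication and S phase genes, 46 were tested, and 0 were called in either direction, with a median log2 fold change of -0.21, 12 above 0 and 34 below. The lowest was Pole4, an accessory subunit of polymerase epsilon, at 1234, 1302 and 694 normalized counts in controls and 546, 463 and 469 in ILK-K5 libraries. Every ILK-K5 library was below every control, with a log2 fold change of -1.08 (SE 0.30, adjusted p = 0.109 in limma). The highest was E2f3 at 0.99 (adjusted p = 0.553).

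Of 28 mitosis genes, 0 were called between the genotypes, with a median of 0.15 and a range from -0.65 for Nuf2, a kinetochore protein, to 1.37 for Mybl2, a transcription factor of the cell cycle. Mki67, the marker of cycling cells, had 3509, 1300.1 and 1373 normalized counts in controls and 2922, 1296 and 1372 in ILK-K5 libraries. Library 1 was the highest in both genotypes, and libraries 2 and 3 were nearly equal between the genotypes. The mitosis genes had a median log2 difference of 0.94 between library 1 and the others. Of the 28, 10 were called higher there and 0 lower, beside 2.88% and 5.95% of all genes tested. The further replication and S phase genes had a median of 0.46 in this contrast, with 6 called higher and 1 lower. Replication stress response genes had 0.61, with 0 called higher and 1 lower. Quiescence and G1 regulators had 0.09, with 1 called higher and 0 lower.

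Of 23 genes of the replication stress response, 0 were called between the genotypes, with a median of -0.32. Fanci, of the Fanconi anaemia pathway, was the lowest, at -1.53 (SE 0.69, adjusted p = 0.422), and Rad9a, a checkpoint clamp subunit, the highest at 0.95 (adjusted p = 0.481). Of 22 regulators of quiescence and G1, 0 were called, with a median of -0.09. Ccnd1, cyclin D1, had 1779, 1177 and 1181 normalized counts in controls and 684, 751 and 582 in ILK-K5 libraries, with no overlap. Its log2 fold change of -1.01 (SE 0.27) had an adjusted p of 0.0899 in limma. Ccnd1 shares 23.4% of its exon bases with LTO1. Btg2, an antiproliferative factor, was the highest at 0.64 (SE 0.76), and was higher in library 1 of both genotypes, by 2.26 on the log2 scale (adjusted p = 0.00690).

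**Figure D4:**
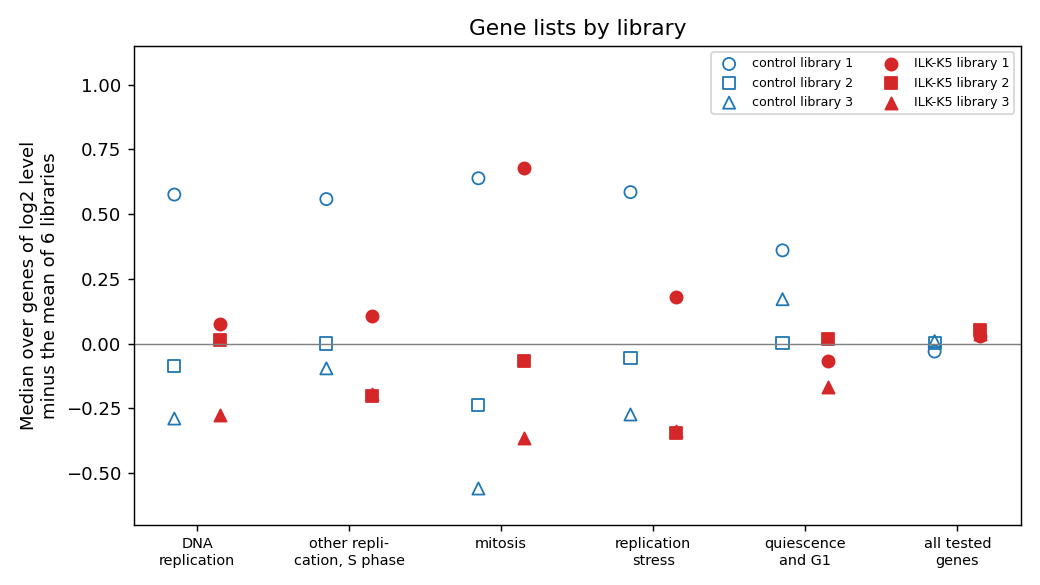
For each gene list, the median over its genes of the log2 level in a library minus the mean of the 6 libraries. Open symbols are control and filled symbols ILK-K5 libraries. For the DNA replication genes the values run from 0.58 in control library 1 to -0.29 in control library 3, while the medians of all tested genes stay between -0.03 and 0.05.

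The libraries also differed in depth, mitochondrial share and cell type markers. They held between 8228019 and 11969072 reads on genes, of which the mitochondrial share was 23.6%, 27.6% and 11.5% in controls and 24.2%, 14.4% and 16.9% in ILK-K5 libraries. The Ilk counts (10.6, 16.7 and 38.5 in controls and 14.8, 30.9 and 29.2 in ILK-K5 libraries) do not check the genotype, since 89.7% of the exon bases of Ilk are shared with Taf10 and Rrp8. All 11 bulge markers listed for the cell type were tested, with 5 log2 fold changes above 0, 6 below and a median of -0.05, and 0 were called higher. The 1 called lower in ILK-K5 libraries was Cd34, a marker of the sort, at 2009, 947 and 1959.9 normalized counts in controls and 296, 559.9 and 433 in ILK-K5 libraries (adjusted p = 0.0239 in limma). Of the macrophage markers, 15 of 15 were called higher in ILK-K5 libraries, with summed normalized counts between 389 and 442 in controls and between 17744 and 24362 in ILK-K5 libraries. C1qa, C1qc, Lyz2, Cd14, Fcgr3 and Fcer1g were at 0 in at least 1 control library. General leukocyte markers were called higher in 6 of 6, Langerhans and dendritic cell markers in 4 of 6, T cell markers in 1 of the 5 tested and fibroblast markers in 1 of the 4 tested. Of the 5 melanocyte markers tested, 1 (Mitf) was called lower, with 3 above 0 and a median log2 fold change of 0.20. Of the 6 markers of differentiated keratinocytes tested, 1 (Lor) was called lower, with 2 above 0 and a median of -0.90, and 0 of the 2 endothelial markers tested were called. Their part in the values of the replication genes was not tested.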

How the data were processed

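The authors amplified RNA of sorted bulge SCs as cDNA and sequenced both ends in 3 control and 3 ILK-K5 libraries. The submitters' processing notes name TopHat2 2.0.14, Bowtie2 2.2.4, DESeq2 1.6.3 and the build GRCm38. The program that counted reads is not given in the sources used here. The normalized counts deposited by the authors are a signal in which each read was divided by a DESeq2 size factor. Dividing by the worth of 1 read gave whole reads for 100% of values, within 0.01 reads, so read counts were recovered. The FPKM values were also deposited by the authors. The deposited tables of the authors' own comparison hold fold changes and p-values and were not used.

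Symbols, coordinates and shared exon bases came from GENCODE M21 (GRCm38), which named 42107 of 43274 rows. Genes averaging 10 or more normalized counts were tested with limma 3.58.1 in R 4.3.3 (eBayes with trend, genotype alone, Benjamini-Hochberg over 16368 genes) on log2(normalized count + 1), a scale that understates changes of low genes. Tests were checked on simulated data with planted changes larger than any fold change of the members. The check does not show how well smaller changes are found. Alternatives were edgeR 4.0.16 and DESeq2 1.42.0 on recovered reads, other scalings, pseudocounts of 0.1 and 5, other filters, the FPKM table, a term for the sample number, a replicate block and leaving out libraries. Figures were drawn with matplotlib 3.10.9.

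The members and all lists were chosen with earlier results of these data known. Values per library are given for members called, with an unadjusted p under 0.05 or with genotypes that do not overlap, and for the most abundant member of each role. Other members are given as the largest rise or fall of a role, or were named after their values had been seen (Mcm5, Rpa2, Fen1, Ccne1 and Chaf1b). Comparison lists are given by the genes called or the largest rise and fall. Mki67 and the Orc genes outside the members were chosen after their values had been seen. Promoters came from RefSeq, which held 32 of the 39 members, and motifs were matched by exact letters.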

Additional observations from a re-analysis of the deposited data

How the results depend on the processing

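Over 19 alternatives, members called higher stayed at 0, and members called lower were 0 except with a term for the sample number, where 1 was called: Tyms, at a log2 fold change of -0.90 and an adjusted p of 0.0414. In the other alternatives the smallest adjusted p of any member was between 0.0538 (Tyms, replicate block) and 0.641. It belonged to Rrm2, which was higher, with replicates 2 and 3 alone (0.305) and without control library 1 (0.203), both in limma. In each of these fits, with the replicate block and with the sample number term, 1 member was higher at an unadjusted p under 0.05. The median over the members lay between -0.32 and 0.16 when 1 library was left out and was 0.09 with replicates 2 and 3 alone. Scaling to the total of nuclear genes moved the median of all genes to 0.15 and that of the members to 0.07. All genes called higher and lower numbered 772 and 280 with DESeq2, 846 and 286 with the sample number, 848 and 269 with the replicate block, and from 222 to 559 and from 32 to 98 when 1 library was left out. The cause of these shifts was not tested.

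The replicate numbers were not taken to pair the libraries, since the deviations of same-numbered libraries correlated at 0.53, 0.020 and 0.31. Control library 3 correlated best with ILK-K5 library 2, at 0.50. Control library 2 was near 0 with every ILK-K5 library, between -0.060 and 0.074. The deviations within a genotype sum to 0, so these correlations are not independent. Of 263 values of the 14 members named by rule, 243 kept their direction and side of the threshold and 19, of members between -0.25 and 0.01 in the reported fit, changed sign. Uhrf1 became -0.096 with DESeq2, -0.067 with edgeR and -0.12 with quantile normalization. E2f1 became -0.11 with DESeq2 and -0.080 with edgeR. Rpa1 became 0.096 with the nuclear total and 0.0028 with replicates 2 and 3, where Lig1 became 0.015. With 1 library left out, the log2 fold change ran from -0.19 to 0.31 for Uhrf1, from -0.47 to 0.46 for E2f1, from -0.13 to 0.045 for Rpa1, from -0.45 to 0.044 for Lig1, from -0.38 to 0.090 for Pcna, from -0.45 to 0.17 for Gins1 and from -0.38 to 0.098 for Mcm6. The other 7 of these members kept their direction, from 0.19 to 1.02 for Cdt1, from -0.89 to -0.25 for Prim1, from -1.30 to -0.70 for Cdc45, from 0.42 to 0.51 for Mcm7, from 0.58 to 0.94 for Pold1, from -0.26 to -0.06 for Rrm1 and from -1.12 to -0.60 for Tyms. Counts were lowest for Pold1, Mcm10, Ccne1 and Fen1, which limits their precision.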
